A study of Mus musculus with 24 samples.

Results

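Omp, S100a5, Ms4a15, Frmd7, Shisa3, Trh, Sp8, Scgn, Otop2 and Klhl30 are genes whose RNA was found mostly in the olfactory bulb of these mice, least so for Trh. They were listed by symbol for that regional pattern, and all 10 symbols were matched to 1 Ensembl gene each among the 37621 features counted in each of the 24 libraries. The libraries hold poly(A)-selected RNA from dissected olfactory bulb, cortex, hippocampus and cerebellum of Cdr1as knockout and of wild type C57BL/6 mice, with 3 libraries in each of the 8 groups. Cdr1as is a circular RNA of the brain that is known for its many binding sites for the microRNA miR-7, and the study compared mice that lack its locus with mice that carry it. The age and sex of the mice, and whether the 3 libraries of a group came from separate animals, are not given in the sources used here, so the p-values below measure the spread between these libraries.

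The olfactory bulb is the first relay of smell in the brain. Sensory neurons of the nasal epithelium send their axons into its outermost layers, where they contact mitral and tufted cells, the output neurons of the bulb, and local interneurons, many of which are born after birth and migrate into the bulb from the forebrain. Among the 10 genes, Omp, which encodes olfactory marker protein, and S100a5, which encodes an EF-hand calcium-binding protein, are known from mature olfactory sensory neurons, Sp8 and Scgn from bulb interneurons, and Trh encodes the precursor of thyrotropin-releasing hormone.

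The promoters of 3 of the genes are shown first because their genes mark the ends of the pattern reported here. S100a5 and Ms4a15 had the most similar profiles of any pair of the 10 genes over the 24 libraries and the lowest traces in knockout cortex, and Trh had the highest traces. Each sequence is the 250 bases before the annotated start, from RefSeq on GRCm38.p6, and lies at chr3:90608272-90608521 (plus strand) for S100a5, chr19:10993251-10993500 (minus strand) for Ms4a15 and chr6:92244651-92244900 (minus strand) for Trh. Capitals mark E-boxes (CANNTG) and GC boxes (GGGCGG), read on both strands.
S100a5: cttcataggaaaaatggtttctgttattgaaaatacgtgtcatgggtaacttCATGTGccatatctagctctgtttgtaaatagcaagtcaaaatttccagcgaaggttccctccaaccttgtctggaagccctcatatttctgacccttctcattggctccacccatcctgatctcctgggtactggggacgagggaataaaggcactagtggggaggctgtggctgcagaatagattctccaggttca
Ms4a15: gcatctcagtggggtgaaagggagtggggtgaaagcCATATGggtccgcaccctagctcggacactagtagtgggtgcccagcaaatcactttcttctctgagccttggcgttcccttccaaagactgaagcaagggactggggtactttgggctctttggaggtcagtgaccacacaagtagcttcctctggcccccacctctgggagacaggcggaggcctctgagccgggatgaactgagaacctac
Trh: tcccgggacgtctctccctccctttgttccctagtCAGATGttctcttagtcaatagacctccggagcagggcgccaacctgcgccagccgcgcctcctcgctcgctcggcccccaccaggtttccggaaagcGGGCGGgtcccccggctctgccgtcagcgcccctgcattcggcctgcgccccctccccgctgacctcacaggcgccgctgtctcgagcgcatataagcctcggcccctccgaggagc
The S100a5 and Ms4a15 windows hold 1 E-box each and no GC box, with a GC content of 46.0% and 57.2%. The Trh window holds 1 E-box and 1 GC box and has a GC content of 68.8%, where the median of all 32841 promoters was 52.4%. Promoters were matched for 8 of the 10 genes, all but Omp and Klhl30. An E-box was found for 6 of these 8 genes, against 69.3% of all 27018 genes with a promoter, and a GC box for 5 of the 8, against 35.4% of all genes. The cyclic AMP response element TGACGTCA was found for none of the 8 (1.77% of all genes), the homeodomain core TAATTA for Otop2 and Sp8 (5.65% of all genes), and the TATA box TATAAA for Sp8 (14.3% of all genes). A match is a string of letters in these windows and was not measured as a binding site.

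Gene counts per library spanned 21.1 M to 40.5 M. Every knockout bulb library (33.8 M to 40.5 M) held more counts than any from wild-type bulb (21.1 M to 27.2 M). Cortex depths overlapped, at 27.8 M to 36.3 M in knockouts and 21.1 M to 34.6 M in wild types. The feature Cdr1asG, by its name at the Cdr1as locus, had 0.333 ± 0.248 CPM (counts scaled to library size with TMM factors) in knockout bulb and 6.82 ± 4.11 CPM in wild-type bulb, and 0.325 ± 0.165 CPM in knockout cortex and 6.52 ± 3.49 CPM in wild-type cortex (SD, n = 3 each). Summed over 8 markers of cortical excitatory neurons, cortex libraries had 1372 to 1574 CPM in knockouts and 1397 to 1509 CPM in wild types, so the cortex libraries carried their own markers at overlapping levels.

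Levels in the bulb per kilobase of exon spanned 25.2-fold among the 10 genes in knockouts and 25.9-fold in wild types. S100a5 was highest, at 166 CPM per kilobase in knockouts and 172 in wild types, and Frmd7 followed with 82.6 and 81.3. Klhl30, a kelch-like gene, was lowest with 6.57 and 6.63, next to Otop2, a proton channel of the otopetrin family, with 8.36 and 9.48. The genes were listed for their restriction to the bulb, so their levels across regions are a description, with no test.

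**Figure D1:**
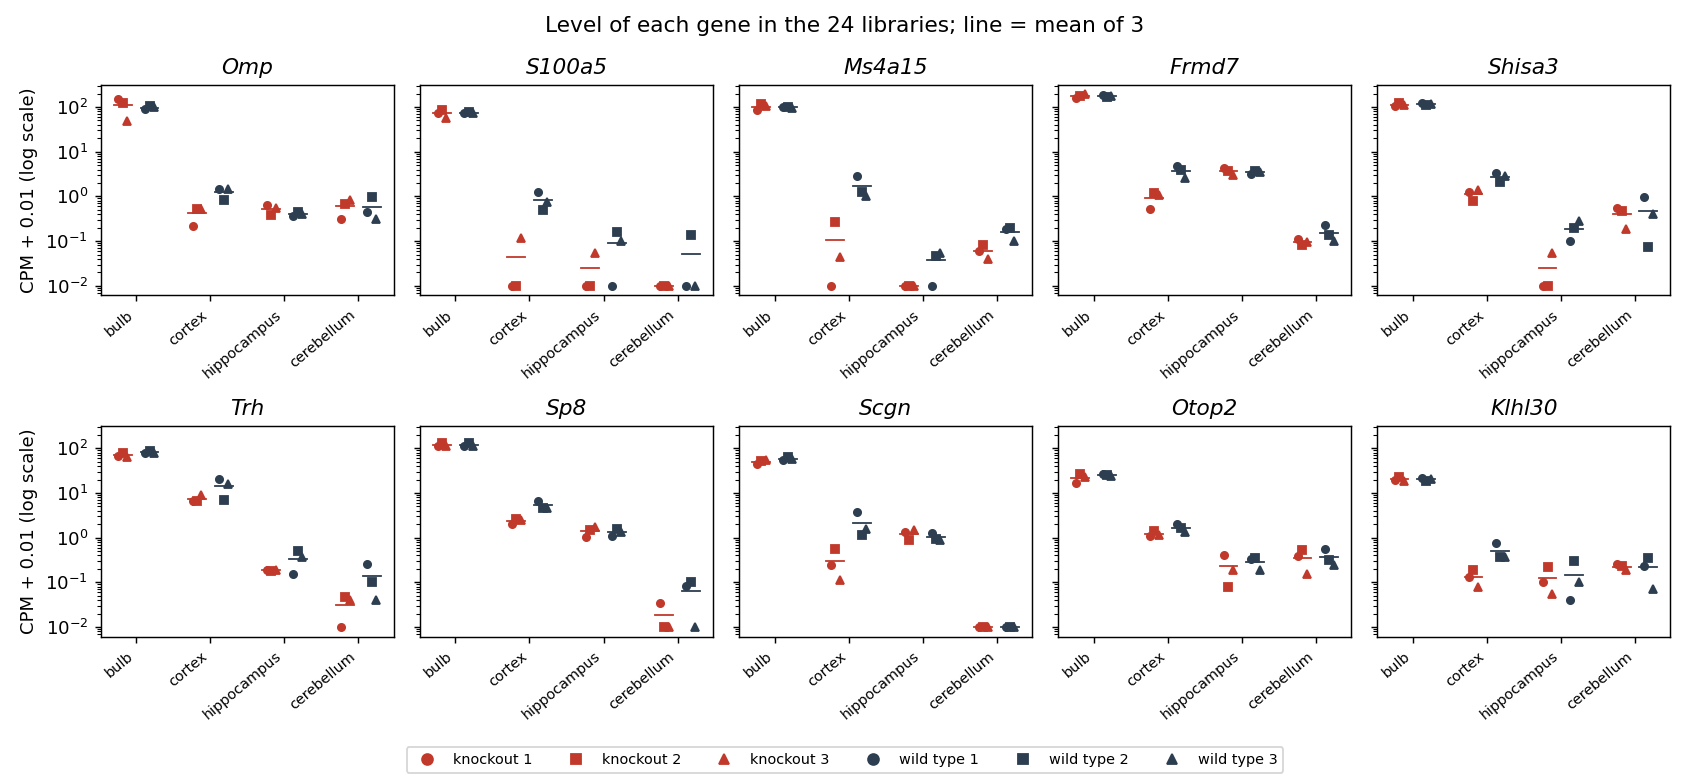
Level of each gene in the 24 libraries (CPM + 0.01, log axis), by region, with knockout libraries (red) left of wild-type libraries (dark blue), marker shape for the replicate number and a line at the mean of 3. All 10 genes sit highest in the bulb, and the knockout points in cortex lie below the wild-type ones for 8 of them.

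The lowest bulb library exceeded the highest library of any other region for all 10 genes in both genotypes. In wild types the next region was the cortex for every gene, and the ratio of the bulb mean to the cortex mean ran from 5.53 for Trh to 90.5 for S100a5. In knockouts the ratio of the bulb to the next region ran from 9.24 for Trh to 2041 for S100a5, a value that rests on 3 S100a5 counts in all knockout cortex libraries together. The next region in knockouts was no longer the cortex for 4 of the genes. It was the cerebellum for Omp (0.592 CPM, against 0.415 CPM in the cortex) and Klhl30 (0.215 against 0.124 CPM), and the hippocampus for Frmd7 (3.73 against 0.921 CPM) and Scgn (1.22 against 0.297 CPM).

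The genes of sensory axons were compared first in the bulb. Omp had 149, 125 and 49.7 CPM in knockout bulbs 1 to 3, against 89.7, 103 and 99.3 CPM in wild-type bulbs. Knockouts 1 and 2 lay above and knockout 3 below all wild types, so the groups overlapped, and the knockout spread (SD 52.1 CPM) was far wider than that of the wild types (SD 6.82 CPM). The log2 fold change, knockout over wild type, was 0.13 (SE 0.37, edgeR adjusted p = 0.9998), and without knockout 1 it was -0.18. S100a5 had 73.3, 86.3 and 55.3 CPM in knockouts, against 73.3, 77.6 and 71.8 CPM in wild types, and here too knockout 3 was the lowest of the 6 libraries (log2 -0.07, SE 0.14, adjusted p = 0.9998).

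Knockout 3 was also the lowest bulb library for 6 of 12 further genes of olfactory sensory neurons. Stoml3, a stomatin-like protein of their cilia, had 26.1, 21.05 and 9.85 CPM in knockouts, against 12.5, 16.5 and 16.1 CPM in wild types. Gng13, a G protein gamma subunit, had 47.3, 45.9 and 28.8 CPM in knockouts, against 35.9, 36.9 and 37.0 CPM in wild types. Both followed the order of Omp, with knockouts 1 and 2 above and knockout 3 below the wild types. The 2 genes of that list with the smallest p in the bulb were Cnga4, a channel subunit (0.729 ± 0.259 CPM in knockouts and 1.16 ± 0.146 CPM in wild types), and Rtp1, a receptor transport protein (0.864 ± 0.430 and 1.49 ± 0.494 CPM), and neither passed (adjusted p = 0.940 and 0.962). The 12 genes summed to 167 to 266 CPM in knockout bulbs and 176 to 192 CPM in wild-type bulbs. The sensory neurons' cell bodies lie outside the bulb, and in bulk tissue fewer axons or cells and less RNA per axon or cell cannot be told apart.

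Omp lies within Capn5 on the same strand with no shared exon bases, and 138 exon bases of Shisa3 are shared with Atp8a1 on the opposite strand. The sources used here do not state a strand setting for the counting, so Shisa3 could hold reads of its neighbour. Capn5 itself had 27.3 ± 5.26 CPM in knockout bulb and 23.1 ± 3.14 CPM in wild-type bulb, and 70.3 ± 4.44 CPM in knockout cortex and 63.8 ± 5.67 CPM in wild-type cortex, an order between regions opposite to that of Omp.

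Among the interneuron genes, Sp8, a zinc finger transcription factor needed for bulb interneurons, had 111, 130 and 111 CPM in knockout bulbs, against 112, 133 and 110 CPM in wild-type bulbs. The groups overlapped nearly completely (log2 -0.02, SE 0.09, adjusted p = 0.9998). Scgn, which encodes the calcium-binding protein secretagogin, had 43.5, 51.7 and 54.4 CPM in knockouts, against 55.5, 63.3 and 57.6 CPM in wild types. Every knockout lay below every wild type. The difference (log2 -0.25, SE 0.10) had an unadjusted p of 0.0396 and did not pass over all genes (edgeR adjusted p = 0.930).

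Trh had the same order of groups as Scgn. It had 67.2, 77.3 and 62.4 CPM in knockout bulbs, against 78.3, 86.2 and 77.5 CPM in wild-type bulbs, with the highest knockout library just under the lowest wild-type one. The log2 was -0.24 (SE 0.084, unadjusted p = 0.0237), which did not pass (edgeR adjusted p = 0.874). With the replicate number as a block the adjusted p was 0.184 for Trh and 0.231 for Scgn. The other genes of the hormone's processing and reception did not pass either: of 8 listed, 6 were higher and 2 lower in knockout bulb, led by the prohormone convertase Pcsk1 (67.3 ± 12.8 CPM in knockouts and 46.7 ± 19.2 CPM in wild types, adjusted p = 0.990) and the receptor Trhr (6.02 ± 1.55 and 4.76 ± 1.17 CPM, adjusted p = 0.9998).

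The genes of membrane proteins and of Klhl30 overlapped between the genotypes in the bulb. Frmd7, a FERM-domain protein mutated in human congenital nystagmus, had 163, 178 and 190 CPM in knockout bulbs, against 182, 164 and 177 CPM in wild-type bulbs. Ms4a15, of the membrane-spanning MS4A family, had 87.4, 116 and 104 CPM in knockouts, against 102, 102 and 92.6 CPM in wild types. Shisa3, whose relative Shisa holds back Wnt and FGF receptors in frog embryos, had 104, 124 and 111 CPM in knockouts, against 120, 108 and 114 CPM in wild types. In all 3 the groups overlapped, and the log2 fold changes were 0.01 (SE 0.092), 0.03 (SE 0.11) and -0.03 (SE 0.087), each with an edgeR adjusted p of 0.9998. Otop2 had 16.8, 26.3 and 23.3 CPM in knockouts, against 26.1, 25.4 and 23.8 CPM in wild types, and knockout 1 was the lowest (log2 -0.20, SE 0.16, adjusted p = 0.9998). Klhl30 had 19.7, 22.4 and 18.7 CPM in knockouts, against 21.8, 18.5 and 21.02 CPM in wild types, with overlapping groups (log2 -0.03, SE 0.10, adjusted p = 0.9998).

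**Figure D2:**
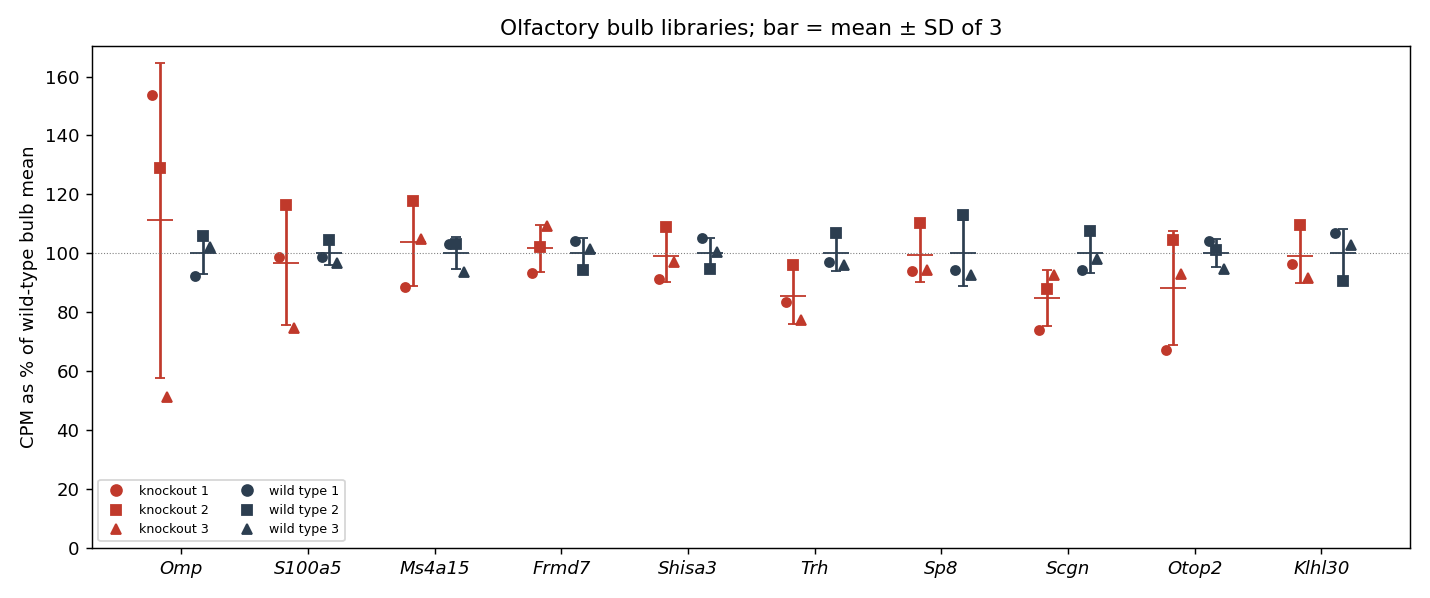
Bulb level of each gene as a percent of the wild-type bulb mean, with knockout libraries (red) left of wild-type libraries (dark blue), marker shape for the replicate number and bars for mean ± SD of 3. The groups overlap for 8 genes, the knockouts of Trh and Scgn lie below the wild types, and the 3 knockout values of Omp are the most spread.

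In the bulb, then, 0 of the 10 genes passed the edgeR quasi-likelihood test (adjusted p under 0.05), and the background was 0.0% of the 16131 genes tested. At an unadjusted p under 0.05 stood 2 of the 10 (Trh and Scgn), both lower, against 5.33% of all genes in either direction and 2.6% of all genes lower, and no alternative tool called any of the 10. With the replicate number as a block, 57 genes passed in the bulb, again 0 of the 10. In 2 of 10 every knockout lay below every wild type, against 4.41% of all genes. The 10 log2 values, 7 of them below 0, had a median of -0.03, where that of all genes was -0.002. Knockout 1 was the lowest of the 6 bulb libraries for 5 of the genes and knockout 3 for 3, while knockout 2 was the highest for 5.

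The cortex held traces of all 10 genes, lower in knockouts than in wild types by group mean for each, though none passed the test over all genes. S100a5 was seen with 0, 0 and 3 counts in knockout cortex libraries, against 24, 14 and 25 counts in wild-type ones. Ms4a15 had 0, 7 and 1 counts in knockouts, against 56, 35 and 35 counts in wild types. Both genes were near or at 0 in knockout cortex, with every knockout under every wild type. Per unit of depth the knockout sum was 4.34% of the wild-type sum for S100a5 (95% exact interval 0.871% to 13.3%) and 5.78% for Ms4a15 (2.44% to 11.7%), intervals that cover counting error only. The log2 fold changes were -4.41 (SE 0.83, edgeR adjusted p = 0.177) and -4.14 (SE 0.86, adjusted p = 0.325), and neither passed.

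Omp had 7, 14 and 15 counts in knockout cortex, against 29, 23 and 50 counts in wild-type cortex, or 0.415 ± 0.180 CPM and 1.26 ± 0.381 CPM (log2 -1.61, SE 0.43, edgeR adjusted p = 0.495). The groups did not overlap. The knockout cortex mean lay within the range of the group means of the other regions, which had 0.516 ± 0.127 CPM in knockout hippocampus and 0.402 ± 0.0466 CPM in wild-type hippocampus, and 0.592 ± 0.265 CPM in knockout cerebellum and 0.558 ± 0.338 CPM in wild-type cerebellum.

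Frmd7 had 17, 32 and 31 counts in knockout cortex, against 94, 108 and 89 counts in wild-type cortex. Every knockout lay below every wild type. It stood at 0.921 ± 0.362 CPM in knockouts and 3.75 ± 1.07 CPM in wild types (log2 -2.03, SE 0.36, edgeR adjusted p = 0.161). In the hippocampus, where its level was near that of wild-type cortex, Frmd7 had 4.38, 3.77 and 3.03 CPM in knockouts, against 3.24, 3.65 and 3.50 CPM in wild types, and the groups overlapped (log2 0.10, SE 0.18, adjusted p = 0.9997). Scgn had 8, 15 and 3 counts in knockout cortex, against 72, 32 and 52 counts in wild-type cortex, again with no overlap (log2 -2.81, SE 0.64, adjusted p = 0.405). Its hippocampal level was 1.22 ± 0.316 CPM in knockouts and 1.02 ± 0.187 CPM in wild types (log2 0.22, SE 0.29, adjusted p = 0.9997), and it had 0 counts in each of the 6 cerebellum libraries.

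Sp8 had 66, 73 and 69 counts in knockout cortex, against 131, 128 and 158 counts in wild-type cortex (log2 -1.18, SE 0.22, edgeR adjusted p = 0.177). Shisa3 had 41, 21 and 39 counts in knockouts, against 67, 58 and 95 counts in wild types (log2 -1.30, SE 0.29, adjusted p = 0.359). Klhl30 had 4, 5 and 2 counts in knockouts, against 15, 10 and 12 counts in wild types (log2 -1.91, SE 0.56, adjusted p = 0.654). In each of these 3 every knockout lay below every wild type, at a depth that allowed only a few counts for Klhl30.

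The groups overlapped for the other 2 genes, which also had the highest traces as a percent of their bulb level. Trh had 225, 182 and 258 counts in knockout cortex, against 409, 199 and 537 counts in wild-type cortex, and by CPM the wild-type library 2 lay among the knockouts (log2 -0.97, SE 0.38, edgeR adjusted p = 0.9998). Otop2 had 36, 39 and 33 counts in knockouts, against 39, 45 and 45 counts in wild types (log2 -0.43, SE 0.27, adjusted p = 0.9998).

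**Figure D3:**
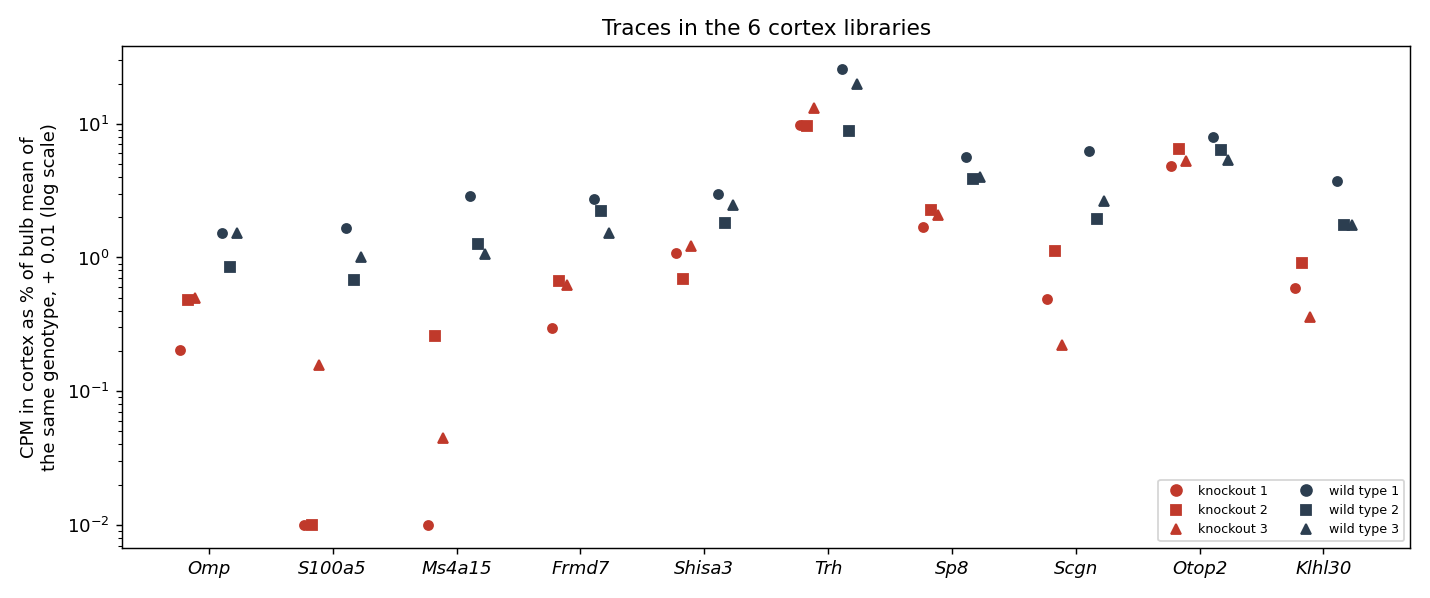
Level of each gene in the 6 cortex libraries as a percent of the bulb mean of the same genotype (+ 0.01, log axis), with knockout libraries (red) left of wild-type libraries (dark blue) and marker shape for the replicate number. The knockouts lie below the wild types for all but Trh and Otop2, and the points at the bottom are libraries with 0 counts of S100a5 or Ms4a15.

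Taken over the 10 genes, 0 passed in the cortex, where the test called 0.0379% of 15834 genes, all of them higher in knockouts. Omp, S100a5, Ms4a15, Scgn and Klhl30 reached the level of the count filter (0.339 CPM) in all 3 libraries of the wild types only, so the test included these 5 through the group where they were high, and their direction was fixed by that. Frmd7, Shisa3, Trh, Sp8 and Otop2 reached it in all 6 libraries. Each of these 5 was lower in knockout cortex, with a median log2 of -1.18, where the median of all genes was -0.005. An unadjusted p under 0.05 was reached by 4 of the 5, against 4.2% of all genes in either direction and 1.77% of all genes lower. Every knockout lay below every wild type for 3 of the 5 (Frmd7, Shisa3 and Sp8), against 4.26% of all genes. The 10 genes were listed with earlier results of these data known, so these counts are a description. Leaving out any 1 of the 6 libraries left Frmd7, Shisa3, Trh, Sp8 and Otop2 on the lower side in each fit. The other 5 also stayed lower where they could be fitted, but the filter had fixed their direction. The genes called depended on the method. DESeq2 and an edgeR fit over all 24 libraries each called S100a5, Ms4a15, Frmd7, Sp8 and Scgn as lower in knockout cortex. The highest adjusted p of these 5 was 0.0119 with DESeq2, which called 102 of 15834 genes. It was 0.0218 with the edgeR fit, which called 49 of 17266 genes. Without the count filter edgeR called S100a5 and Frmd7, among 28 of 23416 genes. With the replicate number as a block, edgeR called S100a5, Frmd7, Shisa3 and Sp8 (highest adjusted p = 0.0404), among 110 of 15834 genes. DESeq2 and the blocked fit used the filter of the main test. Their calls of S100a5, Ms4a15 or Scgn are thus of genes included through the wild types.

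Expressed as a share of the bulb level of the same genotype, the median of the 10 genes was 0.532%, 0.790% and 0.551% in knockout cortex libraries 1 to 3, against 3.36%, 1.87% and 2.10% in wild-type ones. No knockout library reached the lowest wild-type library. Wild-type library 1 was the highest of the 6 for 9 of the 10 genes, and without it the median log2 of the 10 genes was -1.50, against -1.76 with it. The highest share in every cortex library was that of Trh, which reached 10.8% ± 1.997 in knockouts and 18.1% ± 8.62 in wild types, and the lowest group means were those of S100a5, at 0.049% ± 0.085 in knockouts and 1.10% ± 0.495 in wild types (SD, n = 3 each). The wild-type cortex exceeded the knockout cortex by 0.867% (Omp) to 3.09% (Scgn) of the wild-type bulb level for 9 of the genes and by 8.84% for Trh.

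**Figure D4:**
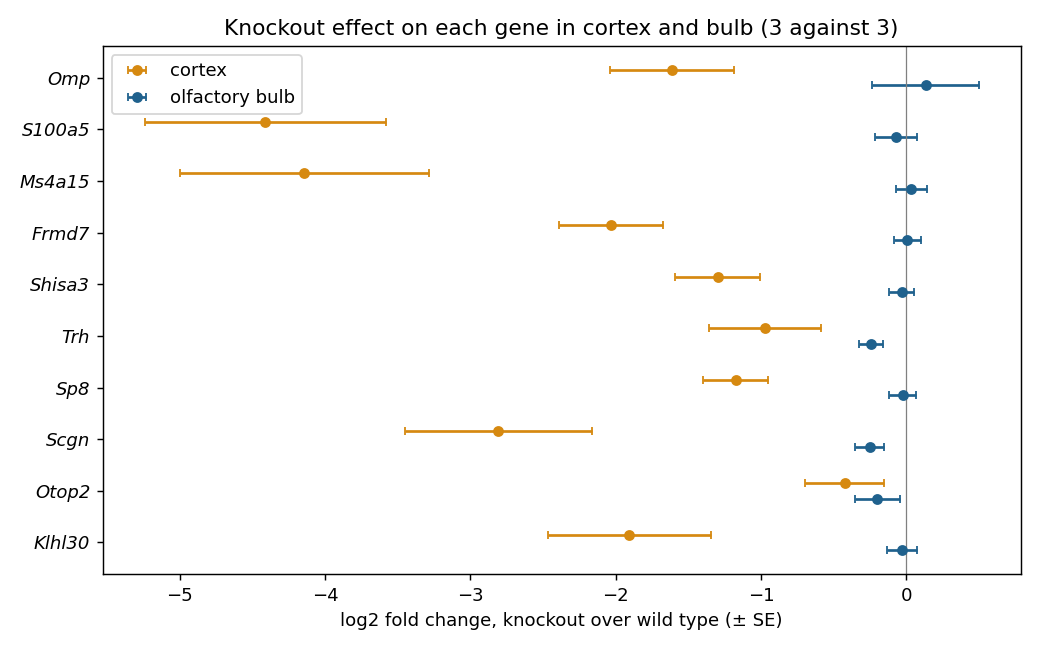
Log2 fold change, knockout over wild type, with its SE, for each gene in the cortex (orange) and in the olfactory bulb (blue), 3 libraries against 3. All 10 cortex values lie below 0, from -0.43 for Otop2 to -4.41 for S100a5, while the bulb values lie between -0.25 and 0.13.

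The difference between the 2 effects was tested directly as an interaction over all 24 libraries, the knockout effect in cortex minus that in bulb. Frmd7 fell in the cortex relative to the bulb (log2 -2.05, SE 0.29, edgeR adjusted p = 0.00656), and so did Ms4a15 (log2 -4.17, SE 0.64, adjusted p = 0.0255). These 2 were among 5 called genes, 0.029% of 17266 tested, all in the same direction. Another 2 are transcription factors of bulb projection neurons, Tbx21 (log2 -2.22, SE 0.36, adjusted p = 0.0255) and Eomes (log2 -3.60, SE 0.59, adjusted p = 0.0268), and the fifth was 1190002N15Rik (log2 -0.78, SE 0.11, adjusted p = 0.00656). Of the 10 genes, 8 had an unadjusted interaction p under 0.05, against 1.89% of all genes. The genes were listed with earlier results of these data known, so this count is a description. The call of Ms4a15 ended in 7 of 12 fits that left out 1 cortex or bulb library (highest adjusted p = 0.235, without cortex knockout 3), that of Frmd7 in none of the 12 (highest adjusted p = 0.0350), and neither gene passed on the 12 cortex and bulb libraries alone (adjusted p = 0.273 for Frmd7 and 0.344 for Ms4a15). With the replicate number as a block Frmd7 passed (edgeR adjusted p = 0.0431) and Ms4a15 did not (adjusted p = 0.0719).

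Markers of other bulb cells were also counted in the cortex. Of 9 mitral and tufted cell genes 6 were lower in knockout cortex, with a median log2 of -0.39, and none passed in the cortex fit. Every knockout lay below every wild type for 4 of the 9, against 4.26% of all genes. Tbx21 had 0.204 ± 0.0791 CPM in knockout cortex and 1.10 ± 0.248 CPM in wild-type cortex (log2 -2.41, SE 0.40, edgeR adjusted p = 0.160). Eomes had 0.245 ± 0.231 CPM in knockout cortex and 3.27 ± 1.80 CPM in wild-type cortex (log2 -3.74, SE 0.64, adjusted p = 0.177). The knockout cortex means of Tbx21 and Eomes lay under the count filter level (0.339 CPM). Both genes thus entered the cortex fit through the wild types, and their direction in it was fixed by that. Both were highest in the bulb, but wild-type cerebellum held 27.6 CPM of Eomes, so that its bulb level was 5.54 times that of the next region, against 36.9 times for Tbx21. The bulb levels were 35.7 ± 2.53 CPM of Tbx21 in knockout bulb and 40.6 ± 1.20 CPM in wild-type bulb (adjusted p = 0.917), and 142 ± 15.99 CPM of Eomes in knockout bulb and 153 ± 15.9 CPM in wild-type bulb (adjusted p = 0.9998).

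Of 16 bulb interneuron genes 14 were lower in knockout cortex, with a median log2 of -0.19, and again none passed. Every knockout lay below every wild type for 5 of the 16, against 4.26% of all genes. Th, the rate-limiting enzyme of dopamine synthesis in periglomerular cells, had 3.03 ± 0.905 CPM in knockout cortex and 8.55 ± 3.42 CPM in wild-type cortex (log2 -1.49, SE 0.33, edgeR adjusted p = 0.370), and its wild-type cortex level was 4.21% of that in bulb. Pax6, a transcription factor of the same cells, stood at 13.4% of its bulb level in wild-type cortex and had 8.11 ± 0.182 CPM in knockouts and 10.2 ± 1.08 CPM in wild types (log2 -0.34, SE 0.14, adjusted p = 0.9998). In the bulb Pax6 had 66.8 ± 2.495 CPM in knockouts and 76.3 ± 3.31 CPM in wild types (adjusted p = 0.824), and Dlx2 56.4 ± 4.03 and 65.0 ± 8.44 CPM (adjusted p = 0.934). Of 9 sensory neuron genes tested in cortex, 7 were lower with a median log2 of -0.05. Stoml3, 18.97 times higher in wild-type bulb than in the next region, had 0.160 ± 0.0529 CPM in knockout cortex and 0.603 ± 0.403 CPM in wild-type cortex, with every knockout below every wild type (log2 -1.84, SE 0.59, unadjusted p = 0.0123, edgeR adjusted p = 0.790). Its knockout mean lay under the count filter level (0.339 CPM). Stoml3 thus entered the test through the wild types, which fixed its direction. Others of the list, such as the G protein subunit Gnal, were higher in cortex than in bulb in wild types.

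**Figure D5:**
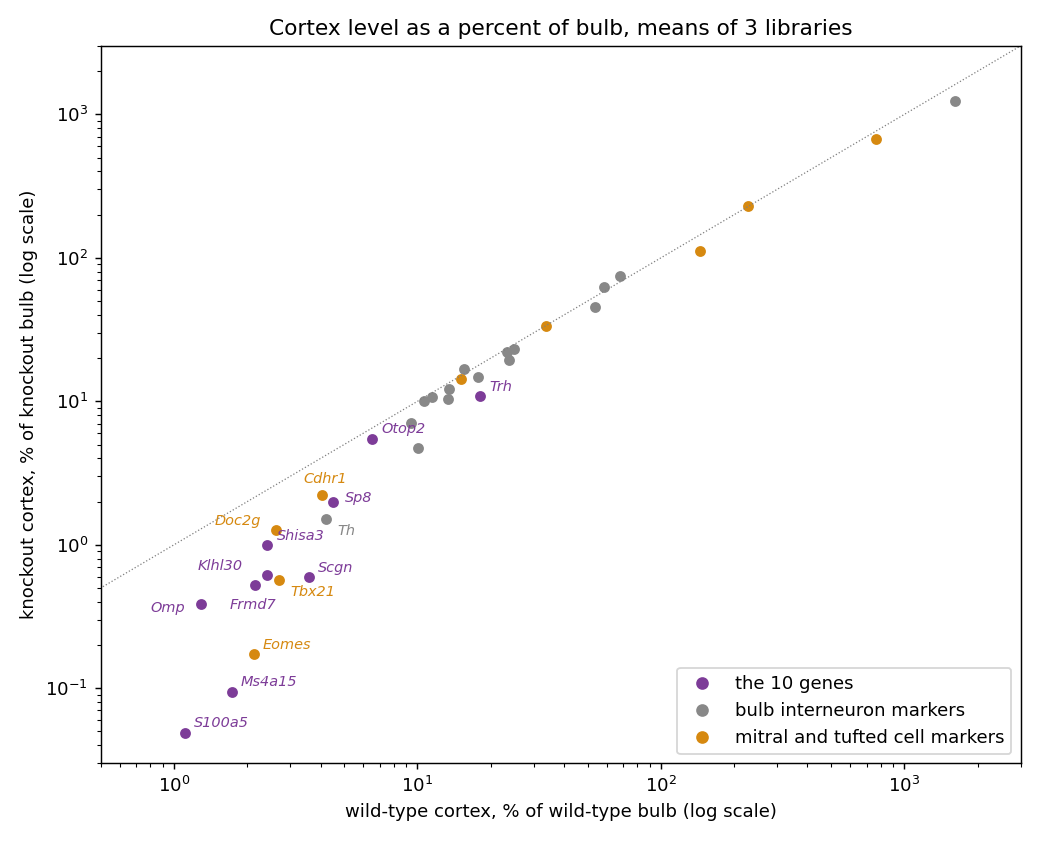
Mean level in cortex as a percent of the bulb level of the same genotype, knockout on the vertical and wild type on the horizontal axis (both log), for the 10 genes (purple), 16 bulb interneuron markers (grey) and 9 mitral and tufted cell markers (orange). The dotted line marks equal shares. Genes under about 5% in wild-type cortex, such as Th at 4.21% and S100a5 at 1.10%, are among those farthest below the line. Of the genes above that share, Pax6, at 13.4%, lies close to the line. Calb2 (10.05% in wild types and 4.70% in knockouts) and Trh (18.1% and 10.8%) lie farther below it.

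Lists of tissue next to the cortex were summed in the same way. In knockout against wild-type cortex the summed level was 563 to 956 CPM against 548 to 975 CPM for 7 striatal genes, 23.4 to 352 CPM against 20.1 to 402 CPM for 8 choroid plexus genes and 153 to 253 CPM against 156 to 325 CPM for 8 genes of the meninges. The ranges overlapped in each, and 0 genes passed in any of the 11 other lists in bulb or cortex. The lists of bulb cells were summed too. The 16 bulb interneuron genes summed to 1245 to 1298 CPM in knockout cortex and 1309 to 1497 CPM in wild-type cortex, and did not overlap. The 12 sensory neuron genes summed to 474 to 491 CPM in knockout cortex and 486 to 570 CPM in wild-type cortex, and the 9 mitral and tufted cell genes to 1551 to 1902 CPM in knockout cortex and 1516 to 1780 CPM in wild-type cortex, and both overlapped. The largest part of each sum in cortex was a gene not restricted to the bulb. In that order it was Gad1 (493 CPM in knockouts and 536 CPM in wild types), Gnal (312 and 342 CPM) and Slc17a7 (1422 and 1292 CPM). The sums thus say little of the bulb-restricted genes in these lists. The part of RNA from bulb cells in the cortex differences of the 10 genes was not tested.

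Relatives of the 10 genes by family were balanced in direction. Of 29 listed, 25 were tested in the bulb (13 higher, 12 lower, median log2 0.02) and 22 in the cortex (12 higher, 10 lower, median log2 0.02), and none passed. Sp7, a bulb-rich relative of Sp8, had 60.9 ± 7.42 CPM in knockout bulb and 54.6 ± 3.06 CPM in wild-type bulb (edgeR adjusted p = 0.999), and in the cortex it had 1.39 ± 0.0665 CPM in knockouts and 2.87 ± 0.539 CPM in wild types (log2 -1.05, SE 0.23, adjusted p = 0.325). Frmd6, a FERM-domain relative of Frmd7 that all regions express, was in the other direction, with 55.6 ± 4.74 CPM in knockout bulb and 40.2 ± 0.326 CPM in wild-type bulb (log2 0.45, SE 0.084, adjusted p = 0.595) and 61.7 ± 3.64 CPM in knockout cortex and 39.5 ± 4.96 CPM in wild-type cortex (log2 0.63, SE 0.11, adjusted p = 0.161).

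In the hippocampus 4 of the 10 genes passed the count filter (Omp, Frmd7, Sp8 and Scgn) and 0 were called, with log2 values of 0.10 to 0.34 and a background of 0.0% of 15572 genes. None of the 4 had an unadjusted p under 0.05, against 5.16% of all genes. Without the filter 6 of the 10 were lower and 4 higher in knockout hippocampus, with a median log2 of -0.31, 1 of them at an unadjusted p under 0.05 and 0 called. Shisa3 had 0, 0 and 1 counts in knockout hippocampus, against 3, 5 and 6 counts in wild-type hippocampus, and was the 1 gene whose groups did not overlap there. In the cerebellum 3 passed (Omp, Shisa3 and Otop2) and 0 were called, with a background of 0.0% of 15723 genes, and none had an unadjusted p under 0.05, against 5.48% of all genes. Without the filter 7 of 9 were lower in knockout cerebellum, with a median log2 of -0.65 and 0 called or at an unadjusted p under 0.05. Ms4a15 had 2, 2 and 1 counts in knockout cerebellum, against 5, 6 and 3 counts in wild-type cerebellum, the 1 gene there without overlap. Neither Shisa3 in hippocampus nor Ms4a15 in cerebellum passed the filter. The share of all genes in that order is not given for these regions, and was 4.41% in bulb and 4.26% in cortex. A single gene per region is therefore not read as a result. The summed level of the 10 genes was 6.96 to 8.05 CPM in knockout hippocampus and 6.48 to 8.08 CPM in wild-type hippocampus, and 1.47 to 2.03 CPM in knockout cerebellum and 1.19 to 2.87 CPM in wild-type cerebellum. In the cortex it was 12.01 to 15.9 CPM in knockouts and 23.2 to 47.6 CPM in wild types, the only one of these 3 regions in which the ranges of the sum did not overlap.

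Over the 24 libraries the profiles of the 10 genes were alike, as a shared regional pattern makes them. The closest pairs among them were S100a5 with Ms4a15 (Pearson r = 0.996 of log2(CPM + 0.5)) and S100a5 with Klhl30 (r = 0.996), and Trh was the farthest from its nearest partner (r = 0.937 with Sp8). Among 13287 genes with at least 1 CPM in bulb, the gene most like S100a5 and Ms4a15 was Tbx21 (r = 0.997 and 0.996). It was Foxd3 for Omp (r = 0.992), Sall1 for Frmd7 (0.985) and Scgn (0.980), Bend7 for Shisa3 (0.988), Hmgb3 for Trh (0.984), Rhcg for Sp8 (0.989), Grip2 for Otop2 (0.990) and Hephl1 for Klhl30 (0.994). The 24 points share 4 regions, so these values describe the regional pattern and carry no test.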

How the data were processed

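Poly(A) RNA of 24 libraries was measured. The deposited values are read counts per gene, 1 table per library. The submitters' processing notes name the build mm9 and, as tools, HTSeq 0.6.1p1, STAR 2.5.1b and bcl2fastq 2.17.1.14, and per the labels' protocols the library kit was stranded. The 5 summary lines of each table (8.22% to 16.8% of counts in no feature, 10.3% to 13.5% not unique) were left out of library sizes and tests. The members and gene lists were chosen with earlier results of these data known. No 2 libraries of a group agreed within sampling noise (chi-square per degree of freedom 6.99 to 60.3). Depth was 21.1 M to 40.5 M gene counts. Intervals cover counting error only.

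From the counts, knockout and wild type were compared within each region (6 libraries) with the edgeR 4.0.16 quasi-likelihood test in R 4.3.3 (filterByExpr, TMM, robust=TRUE, Benjamini-Hochberg over all genes tested, threshold 0.05), and the cortex-minus-bulb effect on all 24 libraries. DESeq2 1.42.0 and limma-voom 3.58.1, other scalings, no filter, a replicate block and leaving out libraries were alternatives. The tests were checked on simulated data. CPM are scaled with TMM factors over 24 libraries. SE is the size of the log2 fold change over the square root of F. Exon lengths and overlaps come from GENCODE on GRCm38, promoters from RefSeq on GRCm38.p6, by symbol.

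Named genes are the 10 members, from each other list those that passed in bulb or cortex or else the 2 with the smallest p in bulb, and the most similar gene per member. The 2 smallest-p genes of some lists are given in the closing section. For ensheathing glia, 1 gene that this rule names is not reported here. Stoml3, Gng13, Th, Calb2, Capn5, the interaction calls and the bulb-rich genes of the closing section were chosen after their values were seen. Pairing was checked by correlating the deviations of equal-numbered knockout and wild-type libraries. They were 0.304, 0.668 and 0.166 in the bulb, 0.304, 0.482 and 0.240 in the hippocampus and 0.236, 0.546 and 0.235 in the cerebellum. Libraries numbered 2 had the highest of these values in each region. Knockout bulb 3 was closer to wild-type bulb 1 (0.345) than to wild-type bulb 3 (0.166). The main tests did not pair libraries, and the replicate block was an alternative.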

Additional observations from a re-analysis of the deposited data

Results flagged for a closer look

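The knockout effect on Frmd7 differed between cortex and bulb by the interaction test over 24 libraries (log2 -2.05, SE 0.29, edgeR adjusted p = 0.00656). Its level was 0.921 CPM in knockout cortex and 3.75 CPM in wild-type cortex, and 177 CPM in knockout bulb and 174 CPM in wild-type bulb. All 3 knockout cortex libraries lay below the 3 wild-type ones, and the bulb groups overlapped.

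The same test picked out Ms4a15 (log2 -4.17, SE 0.64, edgeR adjusted p = 0.0255), with 0.0970 CPM in knockout cortex and 1.71 CPM in wild-type cortex, and 102 CPM in knockout bulb and 98.8 CPM in wild-type bulb. The knockout cortex value rests on 8 counts in 3 libraries. With the replicate number as a block Ms4a15 did not pass (edgeR adjusted p = 0.0719).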

How the results depend on the processing

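In the bulb 0 of the 10 genes were called in all fits. The count of all genes called there was 0 with edgeR, 2 without the count filter, 66 with DESeq2, 57 with the replicate block and 20 in the fit of all 24 libraries. In the bulb 2 values changed sign with the method, Omp with limma-voom (-0.010) and Frmd7 with library totals (-0.021). Leaving out 1 library gave ranges across 0 for Omp (-0.18 to 0.47), S100a5 (-0.21 to 0.075), Ms4a15 (-0.050 to 0.13), Frmd7 (-0.063 to 0.062), Shisa3 (-0.087 to 0.021), Sp8 (-0.088 to 0.052) and Klhl30 (-0.11 to 0.031), so no direction is given for these 7.

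In the cortex 6 of 15834 genes and 0 of the 10 were called. Over the same 15834 genes, library totals gave 0 genes, limma-voom 1, and DESeq2 102 genes and 5 of the 10. No filter gave 28 of 23416 genes and 2 of the 10, and all 24 libraries in one fit 49 of 17266 genes and 5 of the 10. Leaving out 1 library gave 0 to 4 genes and 0 of the 10. The equal-numbered cortex libraries had correlations of 0.338 and 0.553 for numbers 1 and 2 and -0.071 for number 3. Knockout cortex 3 was closer to wild-type cortex 1 (0.352). The replicate block gave 110 of 15834 genes and 4 of the 10 (S100a5, Frmd7, Shisa3 and Sp8). All 10 stayed lower in each of these fits that kept all libraries. For Omp, S100a5, Ms4a15, Scgn and Klhl30 that direction was fixed wherever the count filter was applied to the cortex libraries alone. For cortex minus bulb (5 genes and 2 of the 10), the 12 libraries alone gave 0 and 0, the replicate block 4 and 1 (Frmd7, with Ms4a15 lost), and leaving out 1 library 2 to 7 genes and 1 to 2 of the 10.

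In the hippocampus (0 genes called by edgeR, 804 at an unadjusted p under 0.05) the counts were 1 without the filter, 37 with DESeq2, 15 with the replicate block, 5 in the fit of all libraries and 0 to 42 when 1 library was left out (42 without wild-type 2). In the cerebellum (0 called, 862 unadjusted) they were 1, 50, 3 and 2, and 0 when 1 library was left out. The cause of these differences was not tested. The cortex traces, at a mean of the per-library medians of 0.624% of bulb in knockouts and 2.44% in wild types, were 0.563% and 2.15% with library totals. The blocked fits changed no other call. At the depths reached, S100a5, Ms4a15, Klhl30 and Scgn had too few counts in knockout cortex for a fold change to be precise.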

Other observations

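A wider set of bulb genes was taken without looking at the cortex: genes with at least 10 CPM in bulb and at least 20-fold more there than in hippocampus and cerebellum. It held 32 genes, among them all 10 above. Of the 22 others, 18 had a lower mean in knockout cortex and 4 a higher one, and the median knockout level was 60.1% of the wild-type level. In 12 every knockout cortex library lay below every wild-type one, against 4.26% of all genes tested in cortex, and in 0 above. That share covers only genes that passed the count filter, which 19 of the 22 did. Among the 12, Tbx21, Fam19a3, Adamts19, Clca3a1 and Chrna10 had knockout cortex means under the filter level (0.339 CPM). A cortex fit could include these genes only through the wild types, which would fix their direction. Tbx21, Th, Doc2g, Cdhr1 and Sp7 of this set are also in the lists above, so it is not separate from them. None of the 19 that passed the count filter in cortex was called. With a 10-fold limit 45 of 53 others were lower (median 81.3%), and with a 50-fold limit 8 of 10 (median 55.5%). Examples were Doc2g (1.48 ± 0.185 CPM in knockout cortex and 3.06 ± 0.664 CPM in wild-type cortex), a gene of mitral and tufted cells, and Adamts19 (0.293 ± 0.182 and 0.900 ± 0.363 CPM).

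Some genes were high in a single bulb library, among them Prl, Bpifb9b and Cyp2a5 of this set. Gh and Prl, hormones of the pituitary, had 14.1, 4.65 and 499 CPM and 2.49, 0.619 and 113 CPM in knockout bulbs 1 to 3, against 9.45, 0.565 and 3.95 CPM and 1.81, 0.0332 and 0.944 CPM in wild-type bulbs. Knockout 3, the library with the least Omp, thus had the most of both. Bpifb9b, of a family of secreted proteins, had 0, 71.3 and 0.0566 CPM in knockout bulbs, against 0.462, 0.0332 and 0.515 CPM in wild-type bulbs. Cyp2a5, a cytochrome known from nasal mucosa and liver, had 3.20, 8.96 and 2.72 CPM in knockout bulbs, against 1.89, 10.4 and 68.3 CPM in wild-type bulbs. The part of such neighbouring tissue in the bulb values of Omp was not tested.

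Among the other lists in bulb, the genes with the smallest p that did not pass (edgeR adjusted p of 0.906 to 0.9998) were Nrep (208 ± 21.4 CPM in knockouts and 236 ± 14.3 CPM in wild types) and Igfbpl1 (19.9 ± 1.42 and 22.2 ± 1.53 CPM) of neuroblasts, Fabp7 (394 ± 70.8 and 335 ± 27.2 CPM) of ensheathing glia, Fezf2 (2.56 ± 0.271 and 1.82 ± 0.212 CPM) and Cux2 (77.0 ± 4.96 and 68.8 ± 8.07 CPM) of cortical neurons, Ppp1r1b (19.9 ± 0.617 and 21.3 ± 1.31 CPM) and Tac1 (6.85 ± 1.01 and 5.64 ± 1.29 CPM) of the striatum, Ttr (0.601 ± 0.194 and 0.945 ± 0.128 CPM) and Aqp1 (49.5 ± 10.5 and 59.9 ± 8.38 CPM) of the choroid plexus, and Col1a1 (66.4 ± 78.5 and 28.9 ± 8.79 CPM) and Ogn (18.8 ± 5.11 and 21.7 ± 2.44 CPM) of the meninges. The tissue names are those of the lists. Aqp1 was far above Ttr in bulb, but in cortex it had 1.34 CPM in knockouts and 3.31 CPM in wild types, against 161 and 160 CPM of Ttr. Its bulb level is therefore not read as choroid plexus RNA. In the cortex the median log2 was -0.11 for neuroblasts, -0.17 for ensheathing glia, -0.02 for the hormone's processing genes, 0.11 for cortical neurons, -0.16 for striatum, -0.17 for choroid plexus and -0.13 for meninges.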
